A study of Rattus norvegicus with 6 samples.

Results

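The endothelial cells of the liver were followed here through 10 marker genes, namely Stab1, Stab2, Lyve1, Pecam1, Kdr, Tek, Tie1, Cdh5, Vwf and Eng. A probe set, the group of short probes that reads 1 transcript on the array, was a member when the only gene symbol given to it was 1 of these names. Of the 10 genes, 9 were found among the 14217 genes named on the array, with 11 probe sets among the 31042 tested. Lyve1 and Kdr had 2 probe sets each, and no probe set carried Cdh5 as its only symbol. Total liver RNA was hybridized to Affymetrix rat arrays, 2 arrays in each of 3 groups, and all values are signals on the log2 scale. Rats of the BBDR.lyp/lyp strain carry the mutated lyp locus, which holds Gimap5, on both chromosomes and become diabetic spontaneously. They were sampled at 50 days (within 5 days) before hyperglycemia (pre-hyperglycemia) and at 55 days (within 5 days) after its onset (post-hyperglycemia). BBDR.+/+ rats, which carry the normal locus on the same congenic BB background and stay free of diabetes, were sampled at 55 days (within 5 days). The pre-hyperglycemia group thus differed from them in age and genotype, and the post-hyperglycemia group in genotype and hyperglycemia. The BBDR.lyp/lyp groups differed from each other in age and hyperglycemia. Within each comparison these cannot be told apart. A fast before collection is the only handling in the labels, although the methods describe free feeding. The replicates are named only by a number and a letter that differs between the groups, and what the letter marks is not stated. The p-values therefore measure the spread between these arrays, which may be technical.

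The liver sinusoid is a capillary with an open, fenestrated endothelium and little basement membrane. Its endothelial cells are scavengers, which clear hyaluronan, collagen fragments and other waste from the blood through receptors such as stabilin-1, stabilin-2 and LYVE-1. The endothelium of larger vessels in the liver is continuous and, unlike most sinusoidal endothelium, rich in von Willebrand factor. Growth and stability of both depend on VEGF receptors, the angiopoietin receptor TIE2 and receptors for the TGF-beta and BMP family. Stab1, Lyve1 and Pecam1 are also made by some macrophages, lymphatic vessels or platelets.

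Nearly all of these genes had a higher mean signal in BBDR.lyp/lyp liver, before and after hyperglycemia, than in BBDR.+/+ liver, by small amounts. Both comparisons use the same 2 BBDR.+/+ arrays, so they are not independent of each other. Signs follow the deposited labels, the first-named group minus the second. For Cd36 the study lists the opposite sign, which was not resolved. Cav1, a vascular gene that the study lists as increased in both of its comparisons, had the opposite sign here only between the BBDR.lyp/lyp groups. From BBDR.+/+ it differed in the same direction as in the study, by less. The study averaged its samples from before hyperglycemia and used rank products at a looser threshold, so the measures are unlike. By its brightest probe set it was at -0.16 post-hyperglycemia minus pre-hyperglycemia and 0.10 post-hyperglycemia minus BBDR.+/+, and neither passed. The log2 difference post-hyperglycemia minus BBDR.+/+ was above 0 for all 11 probe sets, from 0.01 to 0.49 with a median of 0.20, where the median over all probe sets was 0.01. Pre-hyperglycemia minus BBDR.+/+ it was above 0 for 10 of 11, from -0.07 to 0.41 with a median of 0.29, against 0.00 over all probe sets. Between the post-hyperglycemia and pre-hyperglycemia groups the median difference was -0.04, with 3 probe sets above 0 and 8 below. limma, with Benjamini-Hochberg adjustment over all 31042 probe sets and a threshold of 0.05 on the adjusted p, passed 1 member probe set, that of Pecam1, in post-hyperglycemia versus BBDR.+/+. This comparison called 5.15% of all probe sets, so 1 of 11 is near the background. It passed 0 members in pre-hyperglycemia versus BBDR.+/+, where 0.718% of all probe sets were called and 6 member probe sets were higher at an unadjusted p under 0.05 (6.43% of all probe sets). It passed 0 in post-hyperglycemia versus pre-hyperglycemia, where 2.18% were called and 1 member, Eng, was lower at an unadjusted p under 0.05 (7.65% of all). In bulk liver, a difference in the number of cells of a type and a difference in RNA per cell cannot be told apart.

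**Figure D1:**
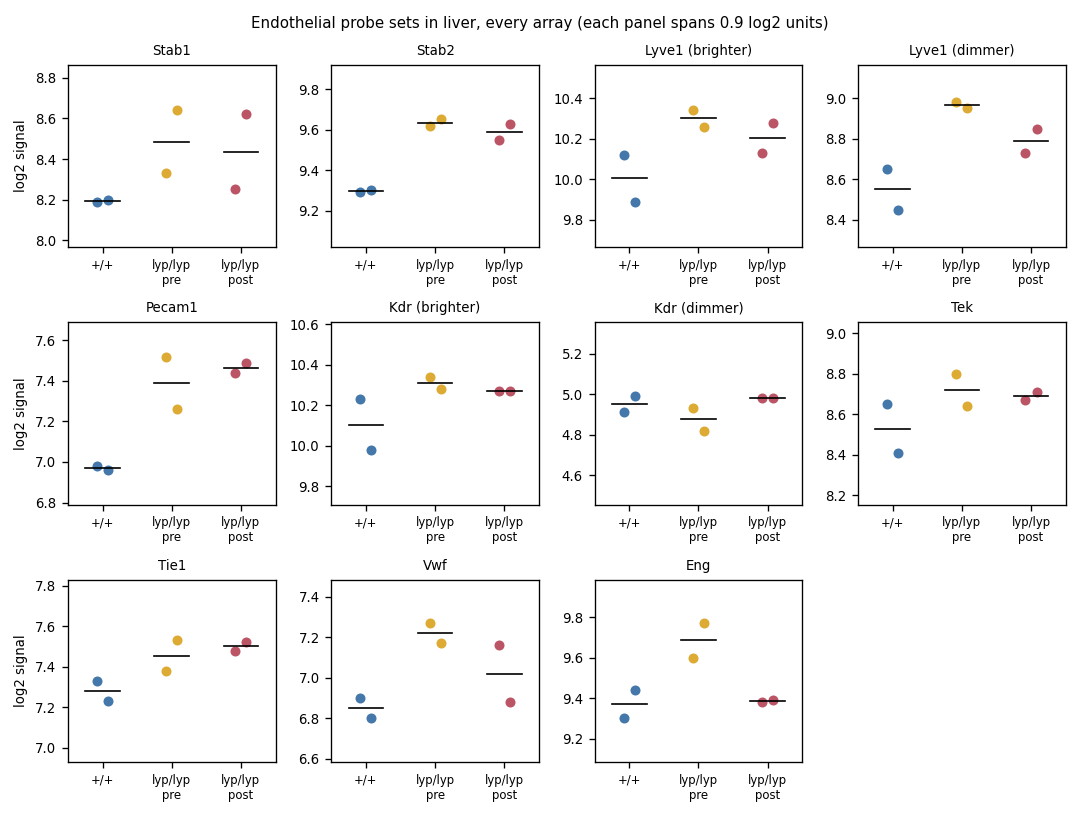
Log2 signal (vertical axis) of each member probe set in liver of BBDR.+/+ rats and of BBDR.lyp/lyp rats before and after hyperglycemia, with points for arrays and lines for the means of 2 arrays. The 4 BBDR.lyp/lyp arrays lie above both BBDR.+/+ arrays in 7 of 11 panels, clearest for Stab2 (9.55 to 9.65 against 9.29 and 9.30) and Pecam1 (7.26 to 7.52 against 6.96 and 6.98).

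All 4 BBDR.lyp/lyp arrays lay above both BBDR.+/+ arrays for 7 of the 11 probe sets and for 6 of the 9 genes by the brightest probe set of each (Stab1, Stab2, Lyve1, Pecam1, Kdr and Tie1). Among all 31042 probe sets 12.5% were ordered this way, and the share was 17.4% among the brightest probe sets of all named genes and 20.8% among the brightest 40% of probe sets, where most members lie. No member had all 4 arrays below BBDR.+/+, which was so for 10.0% of all probe sets. Counted by group, both pre-hyperglycemia arrays were above both BBDR.+/+ arrays for 9 members (21.6% of all probe sets) and both post-hyperglycemia arrays for 8 (26.7%). The mean over the 9 genes was 8.56 and 8.47 on the BBDR.+/+ arrays, 8.80 and 8.80 on the pre-hyperglycemia arrays and 8.70 and 8.76 on the post-hyperglycemia arrays.

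Of the scavenger receptors, Stab2 differed between genotypes with the least spread. Stab2, which takes up hyaluronan, was at 9.29 and 9.30 (log2) in BBDR.+/+, 9.62 and 9.65 pre-hyperglycemia and 9.55 and 9.63 post-hyperglycemia. The groups of the 2 genotypes did not overlap, while those before and after hyperglycemia did. Its log2 difference from BBDR.+/+ was 0.33 before hyperglycemia (adjusted p = 0.2 from limma) and 0.29 after (SE 0.10, 95% interval 0.07 to 0.52, adjusted p = 0.128), so neither passed. Under limma with an intensity trend the latter passed (adjusted p = 0.0484). Post-hyperglycemia minus pre-hyperglycemia it was -0.04, with a 95% interval of -0.26 to 0.18.

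Stab1, the related receptor that clears modified proteins, was at 8.19 and 8.20 in BBDR.+/+, 8.33 and 8.64 pre-hyperglycemia and 8.25 and 8.62 post-hyperglycemia. In each BBDR.lyp/lyp group 1 array lay close to BBDR.+/+ and the other well above it. The log2 differences from BBDR.+/+, 0.28 before and 0.24 after hyperglycemia, did not pass (adjusted p = 0.501 and 0.406 from limma). Without post-hyperglycemia replicate 2 the latter fell to 0.05. The brighter probe set of Lyve1, a hyaluronan receptor of sinusoids and lymphatics, was at 10.12 and 9.89 in BBDR.+/+, 10.34 and 10.26 pre-hyperglycemia and 10.13 and 10.28 post-hyperglycemia. The dimmer one was at 8.65 and 8.45, 8.98 and 8.95, and 8.73 and 8.85 in the same order. Both were highest in the pre-hyperglycemia group and had no BBDR.lyp/lyp array as low as the higher BBDR.+/+ array. Pre-hyperglycemia minus BBDR.+/+ the log2 differences were 0.29 and 0.41 (adjusted p = 0.353 and 0.155 from limma), and post-hyperglycemia minus BBDR.+/+ 0.20 and 0.24 (adjusted p = 0.397 and 0.271).

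The promoters of these 3 receptors are shown because their signals ran in the same direction and because Klf2 and Klf4, factors that bind CACCC boxes, passed the test (values follow). The sequences, from RefSeq on build GRCr8, hold the 250 bases before the transcript start, 5′ to 3′ on the strand of the gene. Stab1 lies at chr16:6367360-6367609, Stab2 at chr7:23320563-23320812 and Lyve1 at chr1:174410978-174411227, all on the minus strand. Capitals mark the motif CCACCC on either strand (GGGTGG on the other).
Stab1: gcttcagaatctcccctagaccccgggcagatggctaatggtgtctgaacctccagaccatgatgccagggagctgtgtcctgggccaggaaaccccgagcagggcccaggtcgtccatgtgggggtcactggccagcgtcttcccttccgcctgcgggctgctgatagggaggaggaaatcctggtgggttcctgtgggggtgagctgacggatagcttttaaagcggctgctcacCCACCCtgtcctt
Stab2: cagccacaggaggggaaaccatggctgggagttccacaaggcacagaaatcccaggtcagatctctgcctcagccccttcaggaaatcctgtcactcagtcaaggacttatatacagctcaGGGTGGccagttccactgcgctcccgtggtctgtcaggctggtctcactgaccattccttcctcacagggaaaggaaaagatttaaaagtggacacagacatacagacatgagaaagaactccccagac
Lyve1: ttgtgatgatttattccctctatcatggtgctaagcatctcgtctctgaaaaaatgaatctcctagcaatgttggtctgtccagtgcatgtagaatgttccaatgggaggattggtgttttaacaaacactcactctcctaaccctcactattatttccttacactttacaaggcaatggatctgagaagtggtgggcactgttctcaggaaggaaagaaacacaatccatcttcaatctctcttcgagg
Stab1 and Stab2 held 1 match each and Lyve1 none. Promoters of 6 members were found (Stab1, Stab2, Lyve1, Kdr, Eng and Tie1), and 5 of the 6 held CCACCC, against 26.1% of 33469 rat promoters of the same length. The ETS core GGAAG was in 6 of 6 (63.3% of all) and the GATA motif AGATAA in 0 of 6 (10.3% of all), both strands searched. The GC content of the 6 ran from 41.6% to 68.0%, where the median of all was 51.2%, and the motifs were chosen after the values were seen. The shares over all promoters were not matched for GC content. A match describes the letters only, and regulation of these genes by Klf2 or Klf4 was not tested.

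Pecam1, the platelet and endothelial adhesion molecule that joins neighbouring endothelial cells, was the member that passed. It was at 6.98 and 6.96 in BBDR.+/+, 7.52 and 7.26 pre-hyperglycemia and 7.44 and 7.49 post-hyperglycemia. All 4 BBDR.lyp/lyp arrays were above both BBDR.+/+ arrays. Post-hyperglycemia minus BBDR.+/+ the log2 difference was 0.49 (SE 0.11, 95% interval 0.24 to 0.74, 1.41-fold, adjusted p = 0.034 from limma). Before hyperglycemia it was 0.41 and did not pass (adjusted p = 0.165), and between the BBDR.lyp/lyp groups it was 0.08 (adjusted p = 0.823). The call ended without BBDR.+/+ replicate 1 (0.50), BBDR.+/+ replicate 2 (0.48), post-hyperglycemia replicate 1 (0.51) or post-hyperglycemia replicate 2 (0.47), although the size hardly moved, and it held without either pre-hyperglycemia array. The methods' t-test did not call it after adjustment (adjusted p = 0.439).

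The receptors of growth factors differed by less. Kdr, the main VEGF receptor of endothelium, was at 10.23 and 9.98 in BBDR.+/+, 10.34 and 10.28 pre-hyperglycemia and 10.27 and 10.27 post-hyperglycemia by its brighter probe set, with log2 differences from BBDR.+/+ of 0.20 before and 0.17 after hyperglycemia. Its dimmer probe set, brighter than 32.4% of all probe sets, stayed between 4.82 and 4.99 and gave -0.07 and 0.03, so the 2 disagreed in sign before hyperglycemia. Tek, the angiopoietin receptor TIE2, was at 8.65 and 8.41, 8.80 and 8.64, and 8.67 and 8.71 in the same order of groups, with differences of 0.19 and 0.16. For Kdr and Tek the spread between the BBDR.+/+ arrays was larger than the difference. Without BBDR.+/+ replicate 2, which was the lower one, post-hyperglycemia minus BBDR.+/+ was 0.04 for both.

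Tie1, the partner of TIE2, was at 7.33 and 7.23 in BBDR.+/+, 7.38 and 7.53 pre-hyperglycemia and 7.48 and 7.52 post-hyperglycemia. The genotypes did not overlap, and the log2 differences of 0.17 and 0.22 did not pass (adjusted p = 0.601 and 0.284 from limma). Its promoter, at chr5:137304982-137305231 on the minus strand of GRCr8, held 3 of the capitalized CCACCC matches, of which 1 shared a base with an ETS core.
Tie1: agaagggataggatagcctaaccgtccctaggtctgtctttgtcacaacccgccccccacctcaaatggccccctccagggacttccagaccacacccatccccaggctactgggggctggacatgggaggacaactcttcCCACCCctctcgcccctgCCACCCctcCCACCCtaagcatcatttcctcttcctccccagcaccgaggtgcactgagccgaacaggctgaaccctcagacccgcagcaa

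Most members had their highest mean before hyperglycemia, and post-hyperglycemia minus pre-hyperglycemia the difference was farthest below 0 for Eng and Vwf. Eng, or endoglin, a co-receptor for BMP9 and TGF-beta on endothelium, was at 9.30 and 9.44 in BBDR.+/+, 9.60 and 9.77 pre-hyperglycemia and 9.38 and 9.39 post-hyperglycemia. Both pre-hyperglycemia arrays lay above the other 4, and the post-hyperglycemia arrays lay between those of BBDR.+/+. The log2 difference was 0.31 pre-hyperglycemia minus BBDR.+/+ (adjusted p = 0.286 from limma), 0.01 post-hyperglycemia minus BBDR.+/+ (adjusted p = 0.972) and -0.30 post-hyperglycemia minus pre-hyperglycemia (95% interval -0.54 to -0.06, adjusted p = 0.215). Vwf, the adhesive glycoprotein that tethers platelets, was at 6.90 and 6.80, 7.27 and 7.17, and 7.16 and 6.88 in the same order as above. Its difference from BBDR.+/+ was 0.38 before hyperglycemia (adjusted p = 0.233) and 0.17 after (adjusted p = 0.478), where 1 array lay within the range of BBDR.+/+. Post-hyperglycemia minus pre-hyperglycemia it was -0.20 (95% interval -0.46 to 0.06, adjusted p = 0.487). None of these passed.

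**Figure D2:**
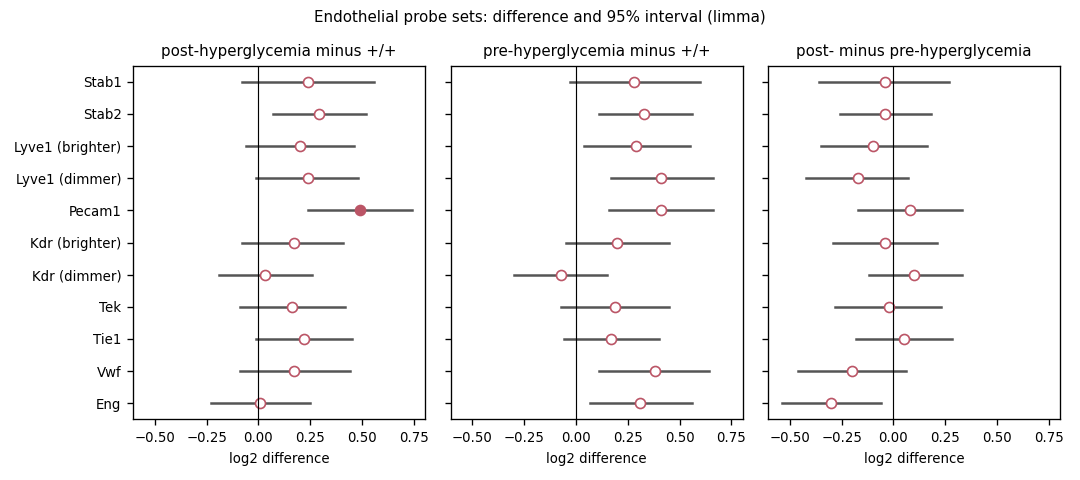
Log2 difference (horizontal axis) of each member probe set in the 3 comparisons, with the 95% interval from limma as a line. The filled point, Pecam1 at 0.49 post-hyperglycemia minus BBDR.+/+, passed the adjusted threshold, and Eng at -0.30 is farthest below 0 between the BBDR.lyp/lyp groups.

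The post-hyperglycemia arrays stood apart in their 3′ and 5′ control signals, which bears on every comparison that uses them. The signal of the beta-actin control nearest the 3′ end minus that nearest the 5′ end averaged 2.07 post-hyperglycemia (log2), 1.42 pre-hyperglycemia and 1.24 in BBDR.+/+, and for GAPDH 1.35, 0.61 and 0.58. With this difference as a covariate, post-hyperglycemia minus BBDR.+/+ became -0.44 for the brighter Kdr probe set, -0.55 for Tek, -0.29 for Vwf and -0.33 and -0.19 for Lyve1, and the difference of Pecam1 shrank to 0.12 (adjusted p = 0.972 from limma). Stab1 (0.85), Stab2 (0.40), Tie1 (0.21) and Eng (0.55) remained above 0, and no member passed. In neither comparison that uses those arrays did limma with the covariate call any probe set of the array (0 of 31042, with 2169 and 2186 at an unadjusted p under 0.05), so all calls given here for them, of members, related genes and markers, end with it. The groups and the covariate overlap so far that the standard error grew, from 0.11 to 0.41 for Pecam1. Pre-hyperglycemia minus BBDR.+/+ does not use those arrays, and with only its own 4 arrays in the fit limma called 0 of the 11 members there too. Gimap5 was at 6.43 and 6.45 in BBDR.+/+, 5.52 and 5.85 pre-hyperglycemia and 5.71 and 5.91 post-hyperglycemia, lower in both BBDR.lyp/lyp groups (adjusted p = 0.0284 and 0.0191 from limma).

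Beyond the members, 68 measured genes of endothelial biology were read in 4 lists, each gene by its brightest probe set. Post-hyperglycemia versus BBDR.+/+, 3 passed as higher (Klf2, Klf4 and Ecscr), 3 as lower (Calcrl, Cd36 and Ehd3) and 62 did not pass, with a median log2 difference of 0.01. The 6 of 68 stand beside 5.15% of all probe sets. Pre-hyperglycemia versus BBDR.+/+, 2 passed as higher (Klf2 and Klf4) and 0 as lower, with a median of 0.08, where 0.718% of all probe sets were called. Post-hyperglycemia versus pre-hyperglycemia, 0 passed as higher and 1 as lower (Cd36), with a median of -0.06, where 2.18% of all probe sets were called. Among the 68, all 4 BBDR.lyp/lyp arrays lay above both BBDR.+/+ arrays for 17 and below for 3, where the share above was 17.4% among the brightest probe sets of all genes and 20.8% among the brightest 40%. The 6 calls post-hyperglycemia versus BBDR.+/+ numbered 1 without BBDR.+/+ replicate 2 and 3 without post-hyperglycemia replicate 2, and the 2 calls pre-hyperglycemia versus BBDR.+/+ numbered 0 without either BBDR.+/+ array and 1 without either pre-hyperglycemia array.

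**Figure D3:**
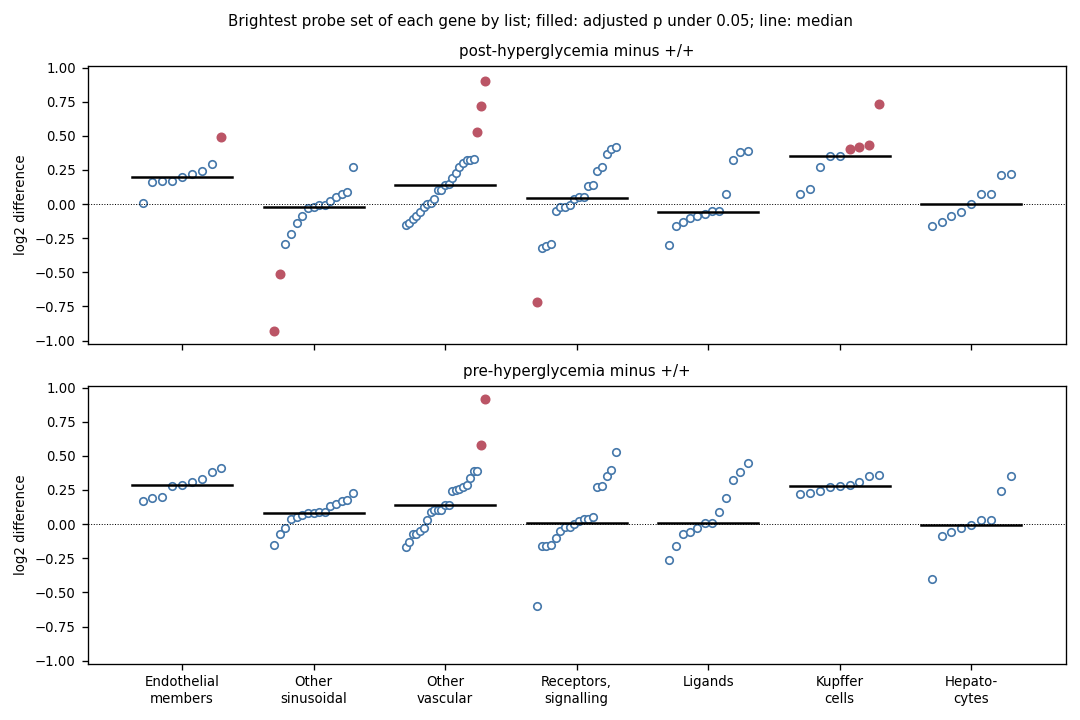
Log2 difference (vertical axis) from BBDR.+/+ of each gene by list, after hyperglycemia (top) and before it (bottom), by the brightest probe set of each gene. Filled points passed the adjusted threshold and lines are medians, which for the members lie at 0.20 and 0.29, for Kupffer cell genes at 0.35 and 0.28 and for the other sinusoidal genes at -0.02 and 0.08.

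Of 15 other genes typical of sinusoidal endothelium, 0 were higher and 2 lower post-hyperglycemia versus BBDR.+/+ (median -0.02, 5.15% of all probe sets called). Pre-hyperglycemia versus BBDR.+/+ 0 passed (median 0.08, 0.718% of all called). Their means were above BBDR.+/+ for 5 of 15 post-hyperglycemia and 12 of 15 pre-hyperglycemia, and none had all 4 BBDR.lyp/lyp arrays above or below both BBDR.+/+ arrays. Mrc1, the mannose receptor, was at 9.66 and 9.65 in BBDR.+/+, 9.68 and 9.71 pre-hyperglycemia and 9.55 and 9.71 post-hyperglycemia. Fcgr2b, the Fc receptor of sinusoids, differed from BBDR.+/+ by -0.01 post-hyperglycemia (log2), and Gpr182, an endothelial receptor, by 0.27 (adjusted p = 0.284 from limma), the highest of the list there. These 3 were chosen after their values were seen. Dnase1l3, a secreted nuclease, differed by 0.17 and Bmp2, a regulator of hepcidin, by 0.23 pre-hyperglycemia minus BBDR.+/+ (adjusted p = 0.591 and 0.457 from limma), the smallest p-values of the list there.

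Cd36, a fatty acid transporter of endothelium that hepatocytes and macrophages also make, was at 10.07 and 10.29 in BBDR.+/+, 9.89 and 10.17 pre-hyperglycemia and 9.04 and 9.45 post-hyperglycemia. Only the post-hyperglycemia arrays were low, as the deposited labels place them, although the study lists Cd36 with the opposite sign. The log2 difference was -0.93 from BBDR.+/+ (1.91-fold, adjusted p = 0.00661 from limma) and -0.78 from pre-hyperglycemia (1.72-fold, adjusted p = 0.0285). Rounded, these are the fold sizes that the study lists, with the sign turned. Leaving out BBDR.+/+ replicate 2 ended the former call (-0.82). The latter was lost when post-hyperglycemia replicate 1 (-0.58), pre-hyperglycemia replicate 2 (-0.64) or any BBDR.+/+ array (-0.78) was dropped. Ehd3, a membrane trafficking protein, was at 7.53 and 7.66, 7.37 and 7.67, and 6.99 and 7.17, and fell by 0.51 post-hyperglycemia versus BBDR.+/+ (adjusted p = 0.0453). That call ended without any 1 of the 4 arrays compared (BBDR.+/+ replicate 1, -0.58, BBDR.+/+ replicate 2, -0.45, post-hyperglycemia replicate 1, -0.42, and post-hyperglycemia replicate 2, -0.60) and with each array centred on its median (-0.49). With the 3′ to 5′ covariate, Cd36 became 0.12 and Ehd3 0.26 post-hyperglycemia minus BBDR.+/+.

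Of 23 other vascular genes, 3 passed as higher post-hyperglycemia versus BBDR.+/+ (5.15% of all probe sets were called) and 2 pre-hyperglycemia versus BBDR.+/+ (0.718%). The median was 0.14 in both. All 4 BBDR.lyp/lyp arrays were above both BBDR.+/+ arrays for 11, against 17.4% among the brightest probe sets of all genes. Klf2, a transcription factor that blood flow induces in endothelium and that T cells and macrophages also express, was at 7.50 and 7.43 in BBDR.+/+, 8.35 and 8.42 pre-hyperglycemia and 8.22 and 8.51 post-hyperglycemia. The genotypes were far apart and the BBDR.lyp/lyp groups overlapped. Its log2 difference from BBDR.+/+ was 0.92 before hyperglycemia (SE 0.12, 1.89-fold, adjusted p = 0.00688 from limma) and 0.90 after (SE 0.12, 1.87-fold, adjusted p = 0.00212), and -0.02 between the BBDR.lyp/lyp groups. The call before hyperglycemia was lost when BBDR.+/+ replicate 1 (0.95) or BBDR.+/+ replicate 2 (0.88) was dropped, and the call after it with the 3′ to 5′ covariate (0.97, adjusted p = 0.731). The other 4 probe sets of Klf2, all dimmer, did not pass in any comparison, and gave -0.21, -0.17, 0.27 and -0.06 post-hyperglycemia minus BBDR.+/+ and 0.06, -0.16, 0.96 and -0.07 pre-hyperglycemia minus BBDR.+/+.

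Klf4, a related factor of endothelium and macrophages, was at 6.05 and 5.89 in BBDR.+/+, 6.53 and 6.56 pre-hyperglycemia and 6.60 and 6.78 post-hyperglycemia. Again no BBDR.lyp/lyp array reached down to BBDR.+/+. The log2 difference was 0.58 before hyperglycemia (SE 0.11, adjusted p = 0.0487 from limma) and 0.72 after (SE 0.11, adjusted p = 0.0049). The call before hyperglycemia was lost without pre-hyperglycemia replicate 1 (0.59), pre-hyperglycemia replicate 2 (0.56), BBDR.+/+ replicate 1 (0.66) or BBDR.+/+ replicate 2 (0.50), and the call after it without BBDR.+/+ replicate 2 (0.64). With the 3′ to 5′ covariate neither passed (0.55 before and 0.48 after, adjusted p = 0.129 and 0.853). Ecscr, an endothelial surface protein involved in cell movement, was at 6.19 and 6.0, 6.57 and 6.40, and 6.51 and 6.74, and rose by 0.53 post-hyperglycemia versus BBDR.+/+ (adjusted p = 0.0359). That call ended without BBDR.+/+ replicate 1 (0.62), BBDR.+/+ replicate 2 (0.43) or post-hyperglycemia replicate 2 (0.41), and with the 3′ to 5′ covariate Ecscr became -0.01. Between the BBDR.lyp/lyp groups 0 of the 23 passed (2.18% of all probe sets were called). Egfl7, a secreted endothelial factor, and Sox7, an endothelial transcription factor, had the smallest p-values there (-0.26 and 0.21, adjusted p = 0.386 and 0.429 from limma).

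**Figure D4:**
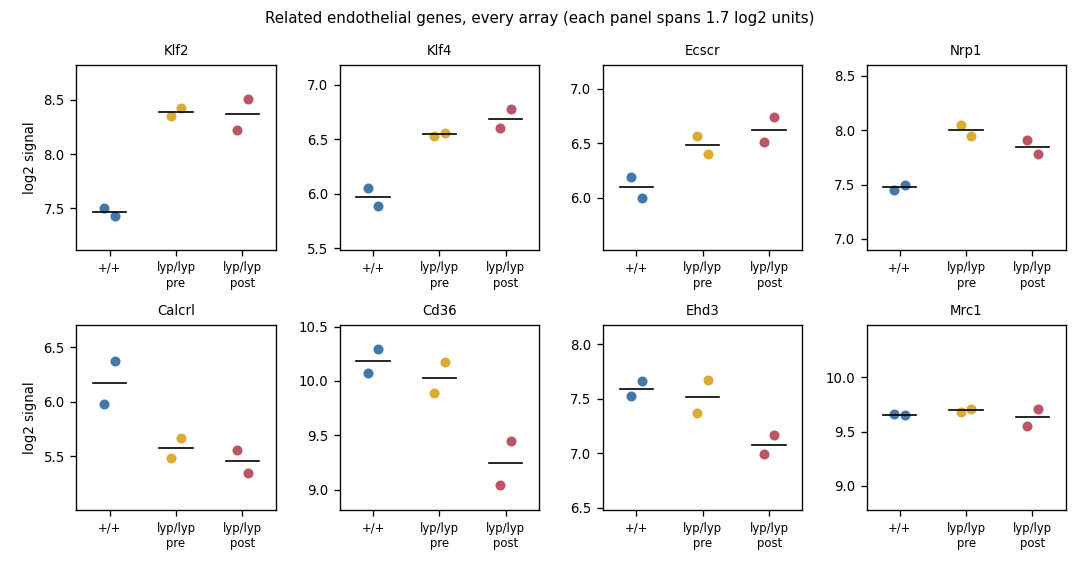
Log2 signal (vertical axis) of 8 related endothelial genes in each array of the 3 groups, with lines for the means of 2 arrays. Klf2 and Klf4 were above BBDR.+/+ in both BBDR.lyp/lyp groups, Cd36 was low post-hyperglycemia alone (9.04 and 9.45), and Mrc1 lay between 9.55 and 9.71 throughout.

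Of 18 receptors and signalling genes, 1 was lower post-hyperglycemia versus BBDR.+/+ (5.15% of all probe sets were called). None passed pre-hyperglycemia versus BBDR.+/+ (0.718% of all called) or between the BBDR.lyp/lyp groups (2.18% of all called). Calcrl, the receptor of adrenomedullin and CGRP on endothelium, was at 5.98 and 6.37 in BBDR.+/+, 5.48 and 5.67 pre-hyperglycemia and 5.56 and 5.34 post-hyperglycemia. All BBDR.lyp/lyp arrays were below BBDR.+/+, and the log2 difference was -0.72 after hyperglycemia (adjusted p = 0.0169 from limma) and -0.60 before (adjusted p = 0.113). The call ended without BBDR.+/+ replicate 2 (-0.53) or post-hyperglycemia replicate 2 (-0.61), and with the 3′ to 5′ covariate the difference became 0.26. A second, dimmer Calcrl probe set differed from BBDR.+/+ by -0.46 after hyperglycemia and 0.05 before it and did not pass. Nrp1, a VEGF co-receptor, was at 7.45 and 7.50, 8.05 and 7.95, and 7.91 and 7.78, and differed from BBDR.+/+ by 0.53 before hyperglycemia (adjusted p = 0.0537) and 0.37 after (adjusted p = 0.0739). Its relative Nrp2 was at 8.50 and 8.35 post-hyperglycemia against 7.98 to 8.11 on the other 4 arrays, with differences of 0.42 from BBDR.+/+ and 0.38 from pre-hyperglycemia (adjusted p = 0.0507 and 0.107). Acvrl1, the receptor ALK1 that endoglin assists, differed by 0.40 post-hyperglycemia minus BBDR.+/+ (adjusted p = 0.0527). Ptprb, the phosphatase that opposes TIE2, differed by -0.22 post-hyperglycemia minus pre-hyperglycemia (adjusted p = 0.428).

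None of the 12 ligands passed in any comparison, which is near the background. Of all probe sets, 5.15% were called post-hyperglycemia versus BBDR.+/+, 0.718% pre-hyperglycemia versus BBDR.+/+ and 2.18% between the BBDR.lyp/lyp groups. Post-hyperglycemia versus BBDR.+/+ an unadjusted p under 0.05 was reached by 2 ligands that were higher and 1 that was lower. Of all 31042 probe sets, 6108 reached it there in either direction. The median log2 difference from BBDR.+/+ was -0.06 after hyperglycemia and 0.01 before. Vegfb, a VEGF family member, and Tgfb1, which signals through endoglin and its partners, had the smallest p-values, at 0.39 and 0.38 after hyperglycemia (adjusted p = 0.0635 and 0.0861 from limma) and 0.32 and 0.38 before (adjusted p = 0.259 and 0.195). Both had all 4 BBDR.lyp/lyp arrays above BBDR.+/+. Between the BBDR.lyp/lyp groups Adm, or adrenomedullin, differed by -0.35 and Bmp6, an endothelial regulator of hepcidin, by -0.23 (adjusted p = 0.295 and 0.351).

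Markers of Kupffer cells, the macrophages of the sinusoid, differed from BBDR.+/+ in the same direction as the members. All 9 measured had a higher mean in both BBDR.lyp/lyp groups, with medians of 0.35 after and 0.28 before hyperglycemia (log2 difference from BBDR.+/+), and in 8 of 9 all 4 BBDR.lyp/lyp arrays were above both BBDR.+/+ arrays (17.4% among the brightest probe sets of all genes). Post-hyperglycemia versus BBDR.+/+, 4 of 9 passed (5.15% of all probe sets), among them Cd163 (0.73), the haemoglobin scavenger, Cd5l (0.43) and C1qa (0.40), with adjusted p = 0.00598, 0.0392 and 0.0442 from limma, and 0 to 2 passed when 1 array was left out and 0 with the 3′ to 5′ covariate. Their summed linear signal ran from 10709 to 10921 in BBDR.+/+, 12977 to 13332 pre-hyperglycemia and 13484 to 14202 post-hyperglycemia. The part of Kupffer cells, which can carry Stab1, Lyve1 and Pecam1, in the values of the members was not tested.

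Markers of other cell types gave smaller or mixed differences, except those of T cells, most of which were lower in BBDR.lyp/lyp. Of all probe sets, 5.15% were called post-hyperglycemia versus BBDR.+/+, 0.718% pre-hyperglycemia versus BBDR.+/+ and 2.18% between the BBDR.lyp/lyp groups. For lists of this size 0 calls is near that background. The 9 hepatocyte markers had 0 calls in all comparisons and summed to 111710 to 113327 in BBDR.+/+, 112600 to 114542 pre-hyperglycemia and 112466 to 113422 post-hyperglycemia. The 5 platelet markers, of interest beside Pecam1 and Vwf, had 0 calls and summed to 369 to 398, 433 to 451 and 439 on both arrays in the same order. The 4 lymphatic markers, of interest beside Lyve1, summed to 2302 to 2331, 2239 to 2242 and 2688 to 2718. Prox1, which hepatocytes also express, was higher by 0.53 post-hyperglycemia than pre-hyperglycemia (adjusted p = 0.0252 from limma). In BBDR.+/+, Prox1 (mean 10.55) and Reln (9.44), which is also in the stellate list, were far brighter than Ccl21 (6.31) and Pdpn (5.45). The sum therefore follows mainly Prox1 and Reln and says little about lymphatic vessels. The 6 T cell markers had 0 calls and summed to 383 to 384, 313 to 339 and 306 to 345. Their means were above BBDR.+/+ for 0 of 6 post-hyperglycemia and 1 of 6 pre-hyperglycemia, with median log2 differences of -0.19 and -0.22. All 4 BBDR.lyp/lyp arrays lay below both BBDR.+/+ arrays for 4 of 6 (10.0% of all probe sets). The 12 stellate cell markers summed to 4585 to 4614, 5268 to 5684 and 4093 to 4755, with Col1a1 higher pre-hyperglycemia than in BBDR.+/+ (0.60, adjusted p = 0.0284), Col1a1 and Col1a2 lower post-hyperglycemia than pre-hyperglycemia (-0.51 and -0.62, adjusted p = 0.031 and 0.0293) and Lum higher post-hyperglycemia than in BBDR.+/+ (0.53, adjusted p = 0.0313). These stellate calls numbered 0 to 1 in each comparison when 1 array was left out. The 4 cholangiocyte markers had 0 calls and summed to 325 to 363, 392 to 404 and 350 to 382. The part of platelets, lymphatics and stellate cells in the values of the members was not tested.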

How the data were processed

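Total liver RNA of 6 rat samples, 2 in each of 3 groups, was hybridized to Affymetrix RG230 2.0 arrays. The authors quantified the images with Affymetrix Expression Console, normalized them with Partek Genomic Suite and deposited 1 log2 value per probe set and array. Neither a version nor the algorithm of normalization is stated in the sources used here, and array medians ran from 5.90 to 5.94. Of 31099 probe sets, 57 controls were set aside. Symbols came from the platform annotation (20826 probe sets with 1 symbol, 436 with several and 9780 with none), and 20758 of the former were found by Entrez identifier in a current gene table.

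limma 3.58.1 (R 4.3.3) was fitted to the deposited log2 values of all 6 arrays, with 1 mean per group and Benjamini-Hochberg adjustment over 31042 probe sets. It stands in for the t-test that the methods name, which was run as an alternative. The rank product was not run. In lists each gene was read by its brightest probe set, that of highest mean signal. All probe sets of members were named, and of other endothelial lists the genes that passed, or the 2 with the smallest p where fewer did. Of marker lists of other cells at most 3 genes that passed were named. The members and lists were chosen with earlier results of these data known. Summed signals are sums of 2 to the power of the log2 value. Alternatives covered other centring and quantile normalization, a filter on dim probe sets, an intensity trend, the arrays of 1 comparison, the brightest probe sets alone, a replicate block, a 3′ to 5′ covariate and each array left out. Python 3.11.15 with numpy 2.4.6, pandas 2.3.3 and matplotlib 3.10.9 served for the other steps. The number of arrays limits the precision.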

Additional observations from a re-analysis of the deposited data

How the results depend on the processing

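The counts of genes passing depended on the test more than on the scaling. Over the whole array they also moved. Post-hyperglycemia versus BBDR.+/+, limma called 1599 of 31042 probe sets, 2371 with an intensity trend and 1881 of 18625 among the brightest 60%. Of the member probe sets, 1 passed post-hyperglycemia versus BBDR.+/+, 0 by the methods' t-test, 2 with an intensity trend, 0 with the 3′ to 5′ covariate and 0 to 1 with 1 array left out. Of the related endothelial genes 6 passed there, 10 among the brightest 60% of probe sets, 0 by the methods' t-test, 0 with the covariate and 1 to 6 with 1 array left out. Post-hyperglycemia versus pre-hyperglycemia 1 related gene passed, 0 by the methods' t-test, 0 on the 4 arrays of the comparison alone, 0 with the covariate and 0 to 1 with 1 array left out. Pre-hyperglycemia versus BBDR.+/+ 2 passed, 1 after quantile normalization, 1 with ribosomal protein genes as the reference, 0 by the methods' t-test, 1 with the covariate and 0 to 2 with 1 array left out. The count of 7 member probe sets with all BBDR.lyp/lyp arrays above BBDR.+/+ was 9 with each array centred on its median, 8 with ribosomal protein genes as the reference and 7 after quantile normalization, alternatives chosen after seeing the data. Leaving out an array can only keep or raise this count, and with it the share over all probe sets, which rose from 12.5% to between 15.3% and 25.2%.

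The replicate numbers are shared by the groups, and same-numbered deviations correlated at 0.261, 0.11 and 0.142 in the 3 pairs of groups, but with 2 numbers per group they were taken as names. With a replicate block, 1 member probe set and 9 related genes passed post-hyperglycemia versus BBDR.+/+, with Acvrl1, Nrp2 and Tgfb1 added. Of all 31042 probe sets 2273 passed there with the block and 1599 without it. Between the BBDR.lyp/lyp groups 0 members and 2 related genes passed with the block (Ehd3 added), where 1191 of all probe sets passed with it and 677 without. Before hyperglycemia versus BBDR.+/+ 0 members and 3 related genes passed (Nrp1 added), where 408 of all passed with the block and 223 without.

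Signs turned as follows. Post-hyperglycemia minus BBDR.+/+, the covariate gave -0.33 and -0.19 for Lyve1, -0.44 for the brighter Kdr probe set, -0.55 for Tek, -0.29 for Vwf, 0.12 for Cd36, 0.26 for Calcrl, 0.26 for Ehd3 and -0.01 for Ecscr. Quantile normalization gave -0.01 for Eng, and with 1 array left out Eng ran from -0.06 to 0.08 and the dimmer Kdr probe set from -0.01 to 0.07. Post-hyperglycemia minus pre-hyperglycemia, centring on ribosomal protein genes gave 0.03 for Stab1, Stab2 and Kdr and 0.04 for Tek, and the mean of both Kdr probe sets gave 0.03. There the covariate gave 0.49 for Stab1, 0.05 for Stab2, -0.24 for Pecam1, 0.17 for Eng and 0.13 for Cd36. With 1 array left out Stab1 ran from -0.23 to 0.14, Stab2 from -0.08 to 0.00, Pecam1 from -0.05 to 0.21, Tek from -0.10 to 0.06 and Tie1 from -0.02 to 0.12. Pre-hyperglycemia minus BBDR.+/+ no member changed sign under any alternative. The cause of these changes of sign was not tested. Signal over background was not given, so dim probe sets such as the second of Kdr could not be judged for detection.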
